A study of Mus musculus with 16 samples.

Results

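Genes of the cell division cycle were followed in mouse hearts that lacked the long noncoding RNA Cardinal (Gm12295) or carried it, with and without pressure overload. The 41 genes were taken by symbol from the 55487 genes of the count matrix and fall into 26 genes of mitosis, 9 genes of S phase, 3 G1 cyclins and 3 inhibitors of cyclin-dependent kinases (CDKs). All 41 were among the 18275 genes tested, and all 41 also passed the same filter on low counts when only the 8 sham libraries were given to it. The list was drawn up because Cenpf had shown one of the largest falls after surgery. The change of Cenpf after surgery is therefore given as a description in both genotypes, with no p. So is the change of every member in control hearts, where calls are counted but carry no test of the members.

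RNA was measured by poly(A)-selected, paired-end sequencing of the apex of the heart, 4 weeks after transverse aortic constriction (TAC), which narrows the aorta and raises the load on the left ventricle, or after a sham operation in which the aorta was not tied. The 16 male mice, of 25 to 30 g body weight, formed 4 groups of 4: wild-type sham (Ctrl sham), whole-body Cardinal knockout sham (KO sham), wild-type TAC (Ctrl TAC) and knockout TAC (KO TAC). The knockout had been made by CRISPR/Cas9 and removed Cardinal from every tissue; age and strain are not given in the sources used here. Library totals lay between 53169437 and 79404714 counts, and levels are in CPM, the count of a gene scaled to library size with TMM factors. Cardinal itself was at 0.276 to 0.553 CPM in 7 of the 8 knockout libraries and at 2.69 to 8.02 CPM in the 8 wild-type libraries. The library labelled KO TAC 4 held 4.55 CPM, a wild-type level, against its label. Calls on the members and on named pathway genes were therefore also obtained without it. Marker calls, counts over the lists of other pathway genes and counts of groups without overlap were obtained only with it. These are pieces of whole tissue, in which fewer cells of a type and less RNA per cell cannot be told apart.

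A dividing cell copies its DNA in S phase and separates the copies in mitosis. The S phase genes, which encode the replicative helicase, the sliding clamp and the enzyme that supplies nucleotides, are classical targets of E2F transcription factors, whereas many mitosis genes are held silent in resting cells by the DREAM complex bound at a short promoter element called the CHR. D-type and E-type cyclins drive the step from G1 into S phase, and CDK inhibitors such as p21 oppose it. Most cardiomyocytes of the adult heart no longer divide, while fibroblasts, endothelial cells and leukocytes of the heart can. Cenpf encodes a very large protein of the kinetochore, the structure that ties chromosomes to the spindle; the mouse protein, also called LEK1, binds microtubules outside mitosis as well.

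Promoter windows of RefSeq (GRCm38.p6), from 250 bases before to 50 bases after the annotated start, were at hand for 33 of the 41 genes; Aurkb, Ccna2, Ccnd1, Ccnd2, Cdkn1c, Kif20a, Mcm4 and Tpx2 had none. They were searched on both strands for the CHR (TTTGAA), for an E2F site (the spelling TTCCCGC, also the spelling TTGGCGC, also the spelling TTCGCGC, and also the spelling TTGCCGC) and for the CCAAT box (CCAAT). The 150 bases before the start of Cenpf are shown beside those of 3 mitosis genes that rose after TAC in knockout hearts and of 2 S phase genes, because Cenpf moved apart from the other mitosis genes; capitals mark every match, and E2F matches of opposite strands overlap in Mcm6.
Cenpf: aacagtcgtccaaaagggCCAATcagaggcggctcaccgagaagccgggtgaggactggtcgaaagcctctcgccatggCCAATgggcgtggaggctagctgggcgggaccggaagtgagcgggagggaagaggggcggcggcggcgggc
Cdk1: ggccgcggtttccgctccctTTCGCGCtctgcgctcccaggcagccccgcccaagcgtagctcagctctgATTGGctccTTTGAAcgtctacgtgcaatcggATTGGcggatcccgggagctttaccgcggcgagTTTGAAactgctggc
Cdc20: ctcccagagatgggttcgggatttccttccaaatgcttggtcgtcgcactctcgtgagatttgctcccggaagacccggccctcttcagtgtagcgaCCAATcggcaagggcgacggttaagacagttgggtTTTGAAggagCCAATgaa
Top2a: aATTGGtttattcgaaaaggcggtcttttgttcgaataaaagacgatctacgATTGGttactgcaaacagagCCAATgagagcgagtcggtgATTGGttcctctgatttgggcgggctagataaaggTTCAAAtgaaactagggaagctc
Rrm2: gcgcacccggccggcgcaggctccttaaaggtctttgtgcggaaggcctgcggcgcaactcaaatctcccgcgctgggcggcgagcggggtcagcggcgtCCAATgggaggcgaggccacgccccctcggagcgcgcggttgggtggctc
Mcm6: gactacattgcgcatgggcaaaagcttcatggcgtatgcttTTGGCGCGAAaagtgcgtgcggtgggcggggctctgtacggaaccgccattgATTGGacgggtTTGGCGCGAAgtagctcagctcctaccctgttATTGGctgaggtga
Each stretch is written 5′ to 3′ along its gene. They lie at chr1:189688087-189688236 (Cenpf, minus strand), chr10:69352913-69353062 (Cdk1, minus strand), chr4:118437344-118437493 (Cdc20, minus strand), chr11:99024190-99024339 (Top2a, minus strand), chr12:24708104-24708253 (Rrm2, plus strand) and chr1:128359706-128359855 (Mcm6, minus strand). The stretches of Cdk1, Cdc20 and Top2a hold 2, 1 and 1 CHR matches, and those of Mcm6 and Cdk1 hold 4 and 1 E2F matches, whereas those of Cenpf and Rrm2 hold neither motif. Cenpf has its only CHR match 3 bases after the start and Rrm2 its only E2F match 235 bases before it, both outside the letters printed. Mitosis genes that rose in knockout hearts could lack a CHR match as well. Ccnb1, Cenpe, Bub1, Birc5 and Nusap1 had none in the window, and Aurka, Plk1, Anln, Bub1b, Cenpa and Kif23 had it only after the start. The stretches shown therefore do not set Cenpf apart from the genes that rose.

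A CHR match stood in the window of 17 of 22 mitosis genes (77.3%) and of 1 of 8 S phase genes, Mcm2, against 20.2% of the 27025 genes with a window and 14.8% of those that were tested for expression. E2F matches showed the other order, with 6 of 8 S phase genes (75%) and 4 of 22 mitosis genes (18.2%), against 10.9% of all genes and 18.1% of tested genes. The CCAAT box was found for 19 of 22 mitosis genes and all 8 S phase genes, and for 41.1% of all genes. A match is a description of letters and not of binding.

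**Figure D1:**
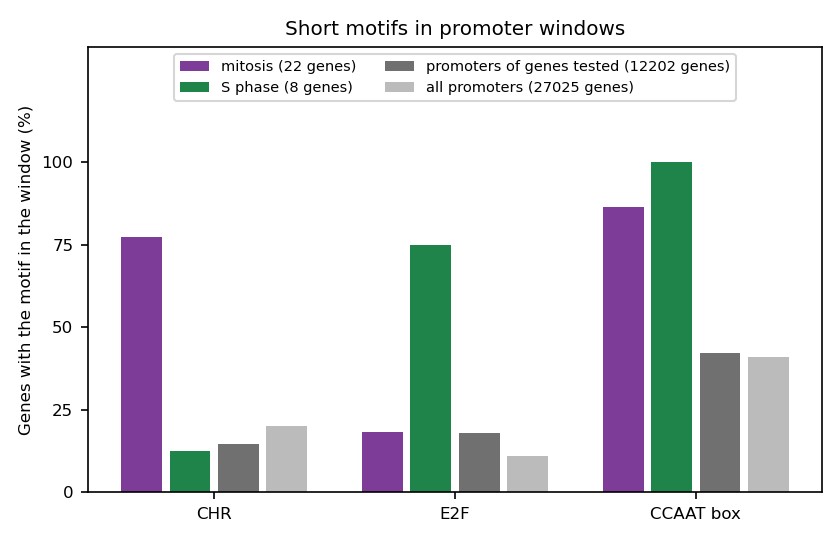
Share of genes (%) whose promoter window holds a match to the CHR, to an E2F site or to the CCAAT box, for mitosis genes, S phase genes, all genes tested for expression and all genes with a window. The CHR bar is highest for mitosis genes (77.3%) and the E2F bar for S phase genes (75%).

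Cenpf was lower after TAC in both genotypes, whereas the other 25 mitosis genes rose in knockout hearts. Its level was 29.0, 28.5, 21.6 and 19.99 CPM in Ctrl sham and 35.1, 32.5, 18.04 and 23.9 in KO sham, against 5.83, 9.16, 8.29 and 6.34 in Ctrl TAC and 5.81, 7.31, 9.33 and 7.08 in KO TAC. Every TAC heart lay below every sham heart, in both genotypes, and the genotypes overlapped within each operation. The log2 fold change was -1.74 ± 0.22 (SE) in control hearts and -1.89 ± 0.22 in knockout hearts, and leaving out the library labelled KO TAC 4 gave -1.87 in the latter. Since the list was chosen for this fall, it carries no test. Between KO TAC and Ctrl TAC the difference was -0.01 ± 0.23 (edgeR quasi-likelihood test, adjusted p = 0.992), with a sign that turned in several alternatives. Cenpf (ENSMUSG00000026605, chr1:189640606-189688086 on the minus strand, GRCm38) has no exon in common with another gene.

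Per kilobase of exon, Cenpf was the second most abundant of the 26 mitosis transcripts in Ctrl sham, at 1.61 CPM per kb after Cenpa at 4.81. In Ctrl TAC it was at 0.480 and in KO TAC at 0.478 CPM per kb. The remaining 24 mitosis genes spanned 0.109 (Ncapg) to 0.980 (Smc2) CPM per kb in Ctrl sham. S phase genes ran from 0.940 (Mcm5) to 12.9 (Pcna), and the D-type cyclins Ccnd1 and Ccnd2 stood at 14.8 and 13.6 CPM per kb.

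Across the 16 libraries, the 5 genes whose log2 CPM followed Cenpf most closely, among 10208 genes of sufficient level, were Mov10l1 (Pearson r = 0.981), Lamb3 (0.976), Plekha5 (0.973), Antxr2 (0.967) and Ctnna1 (0.966). Lamb3 encodes a laminin chain and Ctnna1 the alpha-catenin of cell junctions. The other 25 mitosis genes had negative r with Cenpf, from -0.86 for Cenpe to -0.49 for Kif23. These r describe libraries that share the TAC contrast and carry no test.

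**Figure D2:**
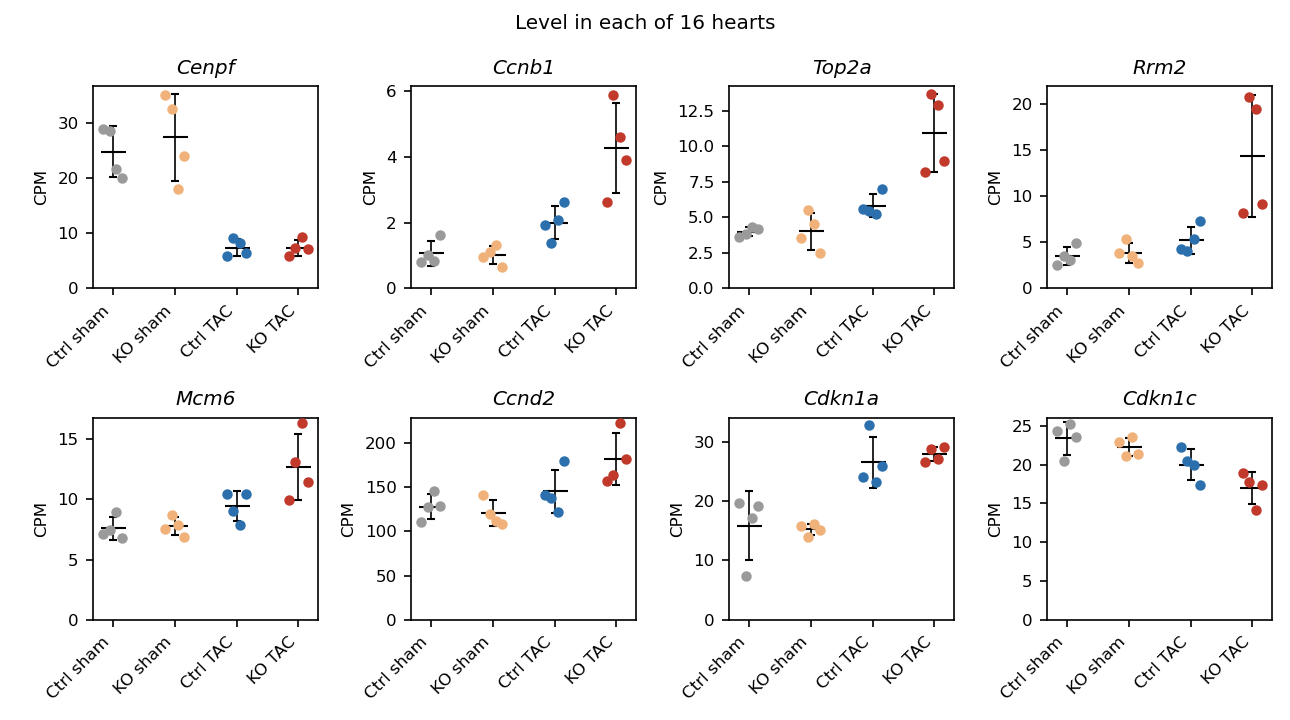
Level (CPM, linear axes from 0) of 8 genes in each of the 16 hearts, with 1 point per animal and the group mean ± SD (n = 4). Cenpf is low in all 8 TAC hearts, whereas Ccnb1, Top2a and Rrm2 are highest in KO TAC, where 2 of the 4 hearts stand above the rest.

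Of the 40 genes other than Cenpf, 33 were called higher and 1 lower in KO TAC than in KO sham at an adjusted p under 0.05, where 34.3% of the 18275 genes tested were called, 17.8% of them as higher and 16.5% as lower. The 1 that fell was the CDK inhibitor gene Cdkn1c. By class, all 25 mitosis genes other than Cenpf rose (median log2 fold change 1.37), as did 4 of 9 S phase genes (median 0.52), all 3 G1 cyclins and 1 of 3 CDK inhibitors, Cdkn1a; the median over all genes tested was -0.0039. Groups did not overlap for 30 genes that were higher and 1 that was lower, against 18.0% and 16.6% of all genes. Counts over all members hold Cenpf too, whose call is not read as a result. They were 35, and 37 when the library labelled KO TAC 4 was left out, where 31.0% of all genes were called.

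In control hearts 14 members were called between Ctrl TAC and Ctrl sham, 12 higher and 2 lower, where 20.0% of all genes tested were called, 10.4% as higher and 9.60% as lower. The 2 lower genes were Cenpf, whose call is not read as a result, and Rrm1. The median log2 fold change was 0.63 for the 25 mitosis genes other than Cenpf and 0.04 for S phase genes. The count was 3 without Ctrl TAC 4 and 5 without Ctrl sham 1, where 14.9% and 14.6% of all genes were called.

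**Figure D3:**
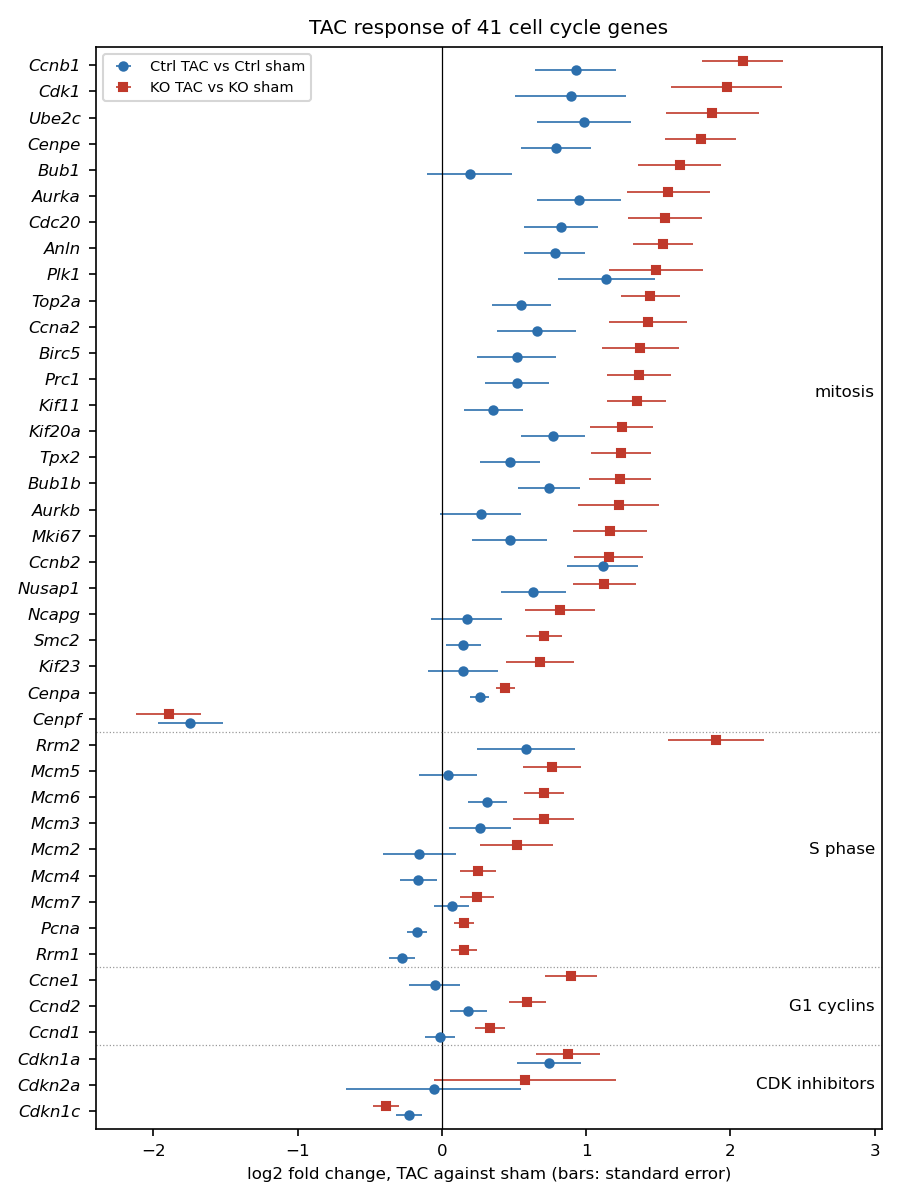
Log2 fold change of TAC against sham with its SE for all 41 genes, in wild-type (circles) and knockout hearts (squares), grouped by class. Mitosis genes other than Cenpf lie right of 0 in both genotypes, from 0.44 (Cenpa) to 2.08 (Ccnb1) in knockout hearts, and Cenpf lies far left in both.

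Cyclin B1 and its partner kinase drive entry into mitosis. Ccnb1, which encodes cyclin B1, was at 0.793, 1.02, 0.828 and 1.62 CPM in Ctrl sham, 0.948, 1.10, 1.31 and 0.650 in KO sham, 1.94, 1.39, 2.07 and 2.62 in Ctrl TAC and 2.63, 5.90, 4.62 and 3.91 in KO TAC. All KO TAC hearts were above all KO sham hearts, while Ctrl sham 4 lay above Ctrl TAC 2. The log2 fold change was 2.08 ± 0.28 in knockout hearts (adjusted p = 1.88e-05), the largest rise among the 41, and 0.93 ± 0.28 in control hearts. Cdk1, the kinase itself, was at 0.515, 1.50, 1.57 and 1.04 CPM in Ctrl sham, 1.04, 1.21, 1.55 and 0.457 in KO sham, 2.23, 1.64, 1.75 and 2.91 in Ctrl TAC and 2.45, 6.27, 4.68 and 3.38 in KO TAC. Its TAC and sham groups did not overlap in either genotype, and it rose by 1.97 ± 0.38 in knockout hearts (adjusted p = 0.000856). Ccna2, which encodes cyclin A2 of S phase and early mitosis, was at 1.35, 1.97, 3.04 and 2.78 CPM in Ctrl sham, 2.102, 3.32, 2.93 and 1.74 in KO sham, 3.24, 3.02, 3.39 and 4.64 in Ctrl TAC and 4.50, 9.26, 7.61 and 5.87 in KO TAC. The control groups overlapped and the knockout groups did not (log2 fold change 1.43 ± 0.27, adjusted p = 0.000624). Ccna2 shares 510 exon bases with Exosc9 on the opposite strand. Ccnb2, the other B-type cyclin gene, rose by 1.15 ± 0.24 in knockout hearts and differed by 1.11 ± 0.25 in control hearts.

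The 6 checkpoint and segregation genes other than Cenpf rose in knockout hearts. Cenpe, a kinesin of the kinetochore, was at 0.988, 0.781, 1.62 and 0.802 CPM in Ctrl sham, 0.632, 0.665, 1.27 and 0.773 in KO sham, 1.92, 1.69, 1.63 and 2.03 in Ctrl TAC and 2.21, 3.15, 3.50 and 2.75 in KO TAC. The sham and TAC groups were separate in both genotypes, and KO TAC was above Ctrl TAC in every library. It rose by 1.79 ± 0.25 in knockout hearts (adjusted p = 1.79e-05). Bub1, a kinase of the spindle checkpoint, was at 0.515, 0.484, 0.710 and 0.841 CPM in Ctrl sham, 0.617, 0.525, 0.499 and 0.597 in KO sham, 0.598, 0.822, 0.684 and 0.780 in Ctrl TAC and 1.10, 2.92, 1.95 and 1.10 in KO TAC. Only the KO TAC hearts stood above the others, with KO TAC 2 at the top, and the change in knockout hearts was 1.65 ± 0.29 (adjusted p = 0.000209) beside 0.19 ± 0.29 in control hearts. Cdc20, the activator of the anaphase-promoting complex, was at 1.27, 1.34, 1.66 and 1.70 CPM in Ctrl sham, 1.39, 2.08, 1.45 and 0.826 in KO sham, 2.69, 2.72, 2.01 and 3.12 in Ctrl TAC and 2.88, 6.20, 4.57 and 3.17 in KO TAC. Ube2c, the ubiquitin-conjugating enzyme of that complex, was at 1.25, 1.27, 1.88 and 1.58 CPM in Ctrl sham, 1.49, 1.99, 1.67 and 0.650 in KO sham, 1.95, 2.63, 2.95 and 4.22 in Ctrl TAC and 2.90, 6.46, 7.03 and 4.93 in KO TAC. For both genes, TAC hearts were above sham hearts of their genotype without overlap, and the rise in knockout hearts was 1.55 ± 0.26 for Cdc20 (adjusted p = 0.000163) and 1.87 ± 0.32 for Ube2c (adjusted p = 0.000311). Ube2c shares 592 exon bases with Tnnc2 on the opposite strand, and whether counting used strand is not given in the sources used here. Cenpa and Bub1b rose by 0.44 ± 0.07 and 1.24 ± 0.21.

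The 3 mitotic kinase genes Aurka, Aurkb and Plk1 rose in knockout hearts, as did Birc5, whose product survivin joins Aurora B in the chromosomal passenger complex. Aurka, the Aurora kinase of the spindle poles, was at 0.571, 0.937, 0.811 and 1.62 CPM in Ctrl sham, 1.15, 1.17, 0.947 and 0.650 in KO sham, 1.36, 1.85, 1.90 and 2.40 in Ctrl TAC and 2.09, 3.264, 4.07 and 2.28 in KO TAC. Ctrl sham 4 lay above Ctrl TAC 1, and the knockout groups did not overlap (1.57 ± 0.29, adjusted p = 0.000402). Plk1, the polo kinase of mitotic entry and spindle assembly, was at 0.278, 0.484, 0.761 and 0.645 CPM in Ctrl sham, 0.569, 0.857, 0.878 and 0.369 in KO sham, 1.04, 1.34, 0.775 and 1.56 in Ctrl TAC and 1.37, 2.84, 1.81 and 1.48 in KO TAC, with sham and TAC hearts separate in both genotypes (1.48 ± 0.33 in knockout hearts, adjusted p = 0.00168). Birc5, which encodes survivin, was at 0.626, 1.05, 0.710 and 0.919 CPM in Ctrl sham, 0.917, 1.07, 0.999 and 0.510 in KO sham, 0.915, 1.21, 1.02 and 1.56 in Ctrl TAC and 1.40, 3.07, 2.67 and 1.95 in KO TAC. Control sham and TAC hearts overlapped, and the rise in knockout hearts was 1.37 ± 0.27 (adjusted p = 0.000581). Aurkb, the Aurora kinase of the passenger complex, rose by 1.23 ± 0.28.

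The 7 genes of spindle motors, midzone and cytokinesis rose in knockout hearts by 0.68 (Kif23) to 1.53 (Anln) on the log2 scale. Anln, the scaffold anillin of the cleavage furrow, was at 1.74, 2.11, 2.54 and 2.23 CPM in Ctrl sham, 2.20, 2.31, 2.29 and 1.65 in KO sham, 3.48, 2.84, 3.54 and 4.89 in Ctrl TAC and 3.95, 8.15, 7.10 and 5.27 in KO TAC. Its TAC and sham hearts were separate in both genotypes, with 1.53 ± 0.21 in knockout hearts (adjusted p = 2.08e-05). Prc1, which bundles microtubules of the midzone, was at 2.102, 2.64, 3.19 and 2.56 CPM in Ctrl sham, 2.78, 3.11, 3.13 and 1.74 in KO sham, 3.52, 3.23, 3.51 and 4.78 in Ctrl TAC and 4.31, 8.25, 8.90 and 6.38 in KO TAC. Neither genotype had overlapping groups, and Prc1 had a rise of 1.37 ± 0.22 in knockout hearts (adjusted p = 0.000129). Prc1 shares 911 exon bases with Rccd1 on the opposite strand. Kif11, the kinesin that pushes the spindle poles apart, was at 1.71, 1.91, 2.06 and 2.27 CPM in Ctrl sham, 1.34, 2.29, 1.27 and 1.56 in KO sham, 2.78, 2.24, 1.96 and 3.16 in Ctrl TAC and 3.30, 4.86, 5.09 and 3.29 in KO TAC. In controls its sham and TAC hearts overlapped, whereas in knockouts they did not (1.35 ± 0.20, adjusted p = 5.4e-05). Kif20a, Tpx2 and Nusap1 rose by 1.24, 1.24 and 1.13. Kif20a shares 1271 exon bases with Cdc23 on the opposite strand.

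Top2a, the topoisomerase that untangles chromosomes before anaphase, was at 3.63, 3.81, 4.33 and 4.17 CPM in Ctrl sham, 3.53, 5.51, 4.49 and 2.50 in KO sham, 5.61, 5.42, 5.26 and 6.98 in Ctrl TAC and 8.18, 13.6, 12.9 and 8.93 in KO TAC. The 4 KO TAC hearts were the 4 highest of all, with KO TAC 2 and 3 furthest up, and TAC and sham hearts were separate in both genotypes. Top2a rose by 1.45 ± 0.20 in knockout hearts (adjusted p = 4.09e-05) and differed by 0.55 ± 0.21 in control hearts. The proliferation marker Mki67 rose by 1.17 ± 0.26, and the condensin subunits Ncapg and Smc2 rose by 0.82 ± 0.24 and 0.71 ± 0.12, in knockout hearts. Ncapg shares 944 exon bases with Lcorl on the opposite strand.

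The 9 S phase genes had log2 fold changes of 0.15 to 1.90 in knockout hearts, with Rrm2 at the upper end. Rrm2, the small subunit of ribonucleotide reductase and the part whose synthesis limits nucleotide supply in dividing cells, was at 2.55, 3.50, 3.08 and 4.91 CPM in Ctrl sham, 3.87, 5.32, 3.49 and 2.74 in KO sham, 4.22, 4.00, 5.35 and 7.27 in Ctrl TAC and 8.20, 20.8, 19.5 and 9.20 in KO TAC. KO TAC 2 and 3 were more than 2-fold above KO TAC 1 and the library labelled KO TAC 4, which in turn were above every other heart. Rrm2 rose by 1.90 ± 0.33 in knockout hearts (adjusted p = 0.000533). Rrm1, the large subunit, was at 15.4, 14.9, 15.8 and 15.996 CPM in Ctrl sham, 15.1, 15.4, 13.8 and 14.7 in KO sham, 12.2, 12.3, 13.3 and 13.3 in Ctrl TAC and 13.3, 18.1, 19.3 and 15.0 in KO TAC. Ctrl TAC hearts were all below Ctrl sham hearts (-0.28 ± 0.09), and the knockout groups overlapped (0.15 ± 0.09, adjusted p = 0.205). Pcna, the sliding clamp of replication, was at 31.0, 29.4, 30.1 and 33.2 CPM in Ctrl sham, 32.1, 32.4, 29.1 and 27.5 in KO sham, 27.3, 25.5, 28.4 and 28.3 in Ctrl TAC and 30.6, 37.6, 35.6 and 31.1 in KO TAC. Control TAC hearts lay below control sham hearts here too (-0.17 ± 0.07), and the knockout difference did not pass the test (0.15 ± 0.07, adjusted p = 0.107).

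Of the 6 subunits of the replicative helicase, Mcm3, Mcm5 and Mcm6 rose in knockout hearts, by 0.70 ± 0.21, 0.76 ± 0.20 and 0.71 ± 0.14 (adjusted p = 0.0168, 0.00629 and 0.000579). Mcm6 went from 7.76 ± 0.759 to 12.7 ± 2.74 CPM (SD, n = 4 each). Mcm2, Mcm4 and Mcm7 differed by 0.52 ± 0.25, 0.25 ± 0.13 and 0.24 ± 0.12 and did not pass the test. Without the library labelled KO TAC 4, Mcm2 and Mcm4 passed it as well (adjusted p = 0.0378 and 0.0451). Mcm7 hosts the miRNA genes Mir93 and Mir25, which share 88 and 84 of its exon bases.

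The classes could be set side by side in each heart. The median over the 25 mitosis genes other than Cenpf, as log2 of the level over the Ctrl sham mean, was 0.83, 1.73, 1.69 and 1.16 in the KO TAC hearts. For the 9 S phase genes the median was 0.12, 0.60, 1.10 and 0.14 in the same hearts. Mitosis genes were thus above the Ctrl sham mean in all 4, and S phase genes furthest so in KO TAC 2 and 3. In Ctrl TAC the mitosis median was 0.46, 0.40, 0.49 and 0.92, and the S phase median was 0.19, -0.24, -0.12 and 0.27. Every Ctrl TAC heart had a mitosis median above 0, while the S phase median was on either side of 0. Leaving out KO TAC 3 took the median log2 fold change of the S phase genes in knockout hearts from 0.52 to 0.20. The difference between the classes was not tested, since genes are not replicates.

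**Figure D4:**
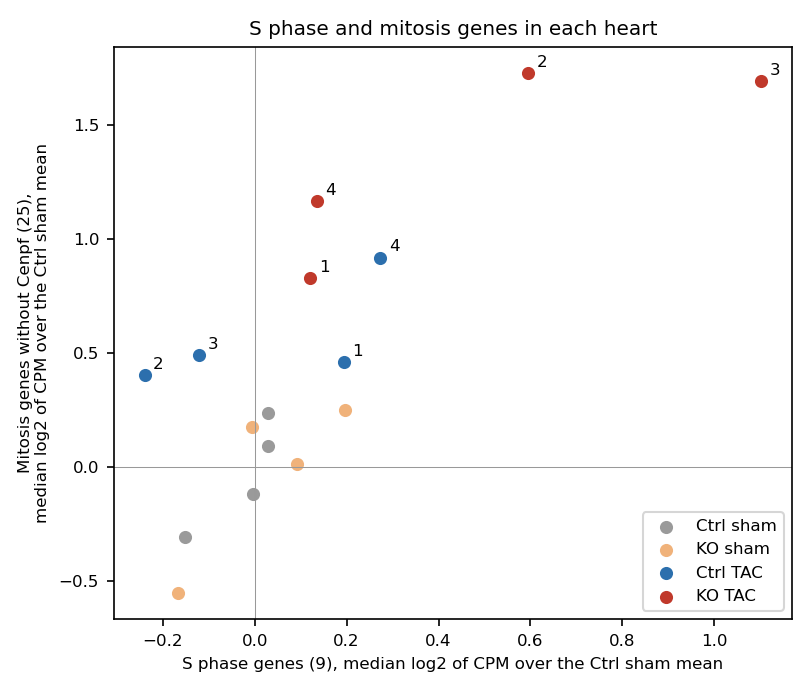
Median log2 of CPM over the Ctrl sham mean for the 25 mitosis genes without Cenpf (vertical) against that for the 9 S phase genes (horizontal), with 1 point per heart, coloured by group and numbered for TAC hearts. KO TAC 2 and 3 lie apart at upper right, and the Ctrl TAC hearts spread along the horizontal axis on both sides of 0.

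The 3 G1 cyclin genes rose in knockout hearts by 0.33 to 0.89 on the log2 scale, and the D-type cyclins Ccnd1 and Ccnd2 were the most abundant members in CPM. Ccnd1, cyclin D1, was at 67.4, 63.8, 76.8 and 71.3 CPM in Ctrl sham, 69.5, 69.7, 76.4 and 57.2 in KO sham, 83.2, 59.7, 60.4 and 73.5 in Ctrl TAC and 84.7, 82.0, 96.8 and 79.8 in KO TAC. The knockout sham and TAC hearts were separate (0.33 ± 0.11, adjusted p = 0.0221), and the call was lost without KO TAC 3 or without KO sham 4. Ccnd2, cyclin D2, was at 110.3, 127, 145 and 129 CPM in Ctrl sham, 141, 119.5, 112 and 109 in KO sham, 141, 138, 121 and 179 in Ctrl TAC and 157, 164, 223 and 182 in KO TAC, a rise of 0.59 ± 0.13 in knockout hearts (adjusted p = 0.00217) with no overlap. Ccne1, cyclin E1, was at 1.60, 1.61, 1.45 and 1.80 CPM in Ctrl sham, 1.20, 1.35, 1.08 and 1.41 in KO sham, 1.36, 1.23, 1.81 and 1.84 in Ctrl TAC and 1.90, 2.34, 3.13 and 2.01 in KO TAC. Ctrl sham and Ctrl TAC overlapped (-0.05 ± 0.18), and in knockout hearts Ccne1 rose by 0.89 ± 0.18 (adjusted p = 0.00073). Ccnd1 shares 1100 exon bases with LTO1 on the opposite strand.

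The CDK inhibitors went in different directions. Cdkn1a, which encodes p21, was at 19.7, 7.33, 17.1 and 19.2 CPM in Ctrl sham, 15.9, 13.9, 16.1 and 15.1 in KO sham, 24.1, 32.8, 23.2 and 25.9 in Ctrl TAC and 26.7, 28.8, 27.1 and 29.2 in KO TAC. Every TAC heart was above every sham heart, and Ctrl sham 2 was the lowest of all. Cdkn1a rose by 0.87 ± 0.22 in knockout hearts (adjusted p = 0.0071) beside 0.74 ± 0.22 in control hearts. Cdkn1c, which encodes p57, was at 24.3, 20.4, 25.3 and 23.6 CPM in Ctrl sham, 22.9, 21.1, 23.5 and 21.4 in KO sham, 22.3, 20.4, 19.96 and 17.4 in Ctrl TAC and 18.9, 17.7, 14.1 and 17.3 in KO TAC. It fell in knockout hearts, where the groups did not overlap (-0.39 ± 0.09, adjusted p = 0.00269), and it differed by -0.23 ± 0.09 in control hearts, where they did. Cdkn1c shares 625 exon bases with Gm44732 on the opposite strand. Cdkn2a, which encodes p16 and p19ARF, was near the detection limit, at 0.0557, 0.156, 0.304 and 0.313 CPM in Ctrl sham, 0.206, 0.210, 0.103 and 0 in KO sham, 0.211, 0.120, 0.182 and 0.265 in Ctrl TAC and 0.297, 0.244, 0.0767 and 0.169 in KO TAC, with at most 20 counts in a library and none in KO sham 4, and no difference in it was detectable at this depth.

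Between the genotypes without load no member was called (edgeR, KO sham vs Ctrl sham). At an unadjusted p under 0.05 there was 1 member, against 2.62% of all genes tested, and edgeR called 0% of all genes. DESeq2 called 0 members, beside 0.0164% of all genes. Cardinal itself was among the genes tested by edgeR and was not called, at 3.24 to 3.86 CPM in Ctrl sham and 0.297 to 0.553 CPM in KO sham. The contrast thus missed a difference that was there. The groups share 1 estimate of the spread, which for Cardinal takes in KO TAC 4 (4.55 CPM) and Ctrl TAC 1 (8.02 CPM), each far from its group. The miss is therefore no measure of how well the contrast would find a change of a member. A lack of calls still does not show that the members were alike. The median log2 fold change over the 41 genes was 0.01.

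Under load, KO TAC and Ctrl TAC differed in 7 of the 41 genes at an adjusted p under 0.05, all higher in KO TAC, where 2.68% of all genes were called and 1.36% were called higher. They were Bub1, Ccnb1, Prc1 and Top2a of mitosis and Pcna, Rrm1 and Rrm2 of S phase. Bub1 differed by 1.28 ± 0.28 (adjusted p = 0.0222), Rrm2 by 1.46 ± 0.33 (adjusted p = 0.0338) and Ccnb1 by 1.09 ± 0.26 (adjusted p = 0.0382). Top2a differed by 0.91 ± 0.20 (adjusted p = 0.0263) and Prc1 by 0.88 ± 0.21 (adjusted p = 0.0387). Smaller differences were found for Rrm1 (0.36 ± 0.09, adjusted p = 0.0422) and Pcna (0.30 ± 0.07, adjusted p = 0.035). In all, 39 of 41 log2 fold changes were above 0 and 38 had an unadjusted p under 0.05, against 18.5% of all genes, and 13 genes had KO TAC wholly above Ctrl TAC, against 5.55% of all genes. The 2 below 0 were Cenpf and Cdkn1c. Markers of other cell types differed in the same contrast. The summed fibroblast markers were at 1123 to 1594 CPM in Ctrl TAC and 1828 to 1995 CPM in KO TAC, with 2 of 8 called higher, and the summed cardiomyocyte markers at 48388 to 52441 and 42472 to 43976 CPM, with 2 of 8 called lower. Neither sum overlapped between the groups. Markers within a sum differed in the size of their change. Group means in Ctrl TAC and KO TAC were 179 and 413 CPM for Postn, but 33.7 and 34.8 CPM for Pdgfra and 5.99 and 6.31 CPM for Tcf21. Log2 fold changes ran from 0.048 to 1.21 for the fibroblast markers and from -0.39 to -0.094 for the cardiomyocyte markers. Myh6, the most abundant of the latter, had means of 20046 and 15336 CPM. The T and B lymphocyte sum was at 2.26 to 3.11 CPM in Ctrl TAC and 3.13 to 4.73 CPM in KO TAC. The atrial sum was at 504 to 1580 and 1987 to 2538 CPM. These sums did not overlap either, with 0 markers called. The atrial sum was almost wholly Nppa, with means of 1025 CPM in Ctrl TAC and 2322 CPM in KO TAC. The other tested atrial marker, Myl4, had means of 1.91 and 1.72 CPM. The paper uses Nppa, under the name Anp, as a marker of hypertrophy. The atrial sum is therefore not read as a measure of atrial tissue. Macrophage sums overlapped (144 to 165 and 153 to 207 CPM, with 0 of 8 called), as did endothelial, smooth muscle and red blood cell sums. The part of these markers in the difference was not tested.

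This count depended on single libraries. With the library labelled KO TAC 4 left out it was 8, of which Ccnb1 and Prc1 were no longer part (adjusted p = 0.0509 and 0.0504). The share of all genes called was then 2.37%. Without Ctrl TAC 2, Ctrl TAC 3, KO TAC 2 or KO TAC 3 no member was called, where 0.342%, 1.03%, 0.817% and 0.452% of all genes were. Without Ctrl TAC 4 it was 15, beside 3.96% of all genes, and DESeq2 called 20, beside 6.47% of all genes.

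Animal numbers in the labels also ran with genotype among the TAC hearts and with the operation among the knockout hearts. Numbers starting with 25 belonged to Ctrl TAC 2, 3 and 4 and to the library labelled KO TAC 4, and the labels do not say what the number stands for. With a term for that series no member was called, where 0.0657% of all genes were. The log2 fold change of Rrm2 was then 1.31 ± 0.42 (adjusted p = 0.213), that of Top2a 0.82 ± 0.24 (adjusted p = 0.158) and that of Bub1 1.09 ± 0.35 (adjusted p = 0.187). Within the series, for all 7 genes KO TAC 1, 2 and 3 were above Ctrl TAC 1, and the library labelled KO TAC 4 was above Ctrl TAC 2, 3 and 4. Each series has 1 library on one side, in the second case the library with Cardinal at a wild-type level, and the 7 genes were named for being higher in these same libraries, so that this order is a description and no support. Numbers starting with 33 belonged to KO sham 1, 2 and 3 but to no TAC heart, and no sham heart had a number starting with 25. With a term for numbers starting with 33, 26.4% of all genes were called between KO TAC and KO sham. Of the genes named for that contrast, Pcna then gained a call, and Chaf1b, Exo1 and Mcm8 of the other pathway lists lost theirs.

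The interaction asks whether the TAC response differed between genotypes. It was called for 0 of 41 genes by edgeR and 0 by DESeq2, where 0.0109% and 0.722% of all genes were called. At an unadjusted p under 0.05 there were 19 members with edgeR, against 11.1% of all genes. With DESeq2 there were 23, for which the share of all genes was not obtained. The estimate was above 0 for 39 of 41 genes, with a median of 0.75 for the 25 mitosis genes other than Cenpf and 0.43 for S phase genes. For Bub1 it was 1.46 ± 0.41 (adjusted p = 0.234) and for Cenpf -0.15 ± 0.31 (adjusted p = 0.909). The larger count of calls in knockout than in control hearts was therefore not shown to be a difference between them.

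Other genes of the same pathways, from lists that hold none of the 41, were counted in the same way. Of 50 other mitosis genes, 44 rose and 2 fell in KO TAC against KO sham (median log2 fold change 1.22), where 17.8% of all genes tested were called higher and 16.5% lower. The largest rises were those of the spindle proteins Ckap2l (2.096 ± 0.34), Hmmr (2.04 ± 0.35) and Ckap2 (1.98 ± 0.34), and the falls were those of Sgo2a (-0.52 ± 0.13) and Pttg1, which encodes securin (-0.44 ± 0.06). Of 48 other replication genes, 20 rose and 5 fell (median 0.32), the falls being a smaller share than that of all genes. The chromatin assembly factor Chaf1b (1.49 ± 0.35), the exonuclease Exo1 (1.20 ± 0.37) and the helicase cofactor Gins2 (1.15 ± 0.29) rose most. The dUTPase gene Dut (-0.73 ± 0.07), Mcm8 (-0.37 ± 0.13) and Rpa1 (-0.31 ± 0.06), which encodes a subunit that coats single-stranded DNA, fell most, and the call on Mcm8 was lost in 9 of 24 alternatives. Of 42 other regulators of G1 and the checkpoints, 15 rose and 4 fell, again a smaller share of falls than over all genes (median 0.25), with Btg2 (1.76 ± 0.28), the transcription factor E2f1 (1.17 ± 0.29) and the kinase Chek1 (0.94 ± 0.28) at the upper end. Tfdp2, a partner of E2F proteins (-0.55 ± 0.08), and the DREAM subunits Lin52 (-0.36 ± 0.08) and Rbl2, the pocket protein p130 (-0.31 ± 0.05), were at the lower end.

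Markers of the cell types of the heart moved in the same contrast, where 17.8% of all genes tested were called higher and 16.5% lower. Of 8 fibroblast markers, 8 rose in KO TAC against KO sham, and their sum was 610.0 to 645 CPM in KO sham and 1828 to 1995 CPM in KO TAC, beside 579 to 706 CPM in Ctrl sham and 1123 to 1594 CPM in Ctrl TAC. All 8 macrophage and leukocyte markers rose, from a sum of 100.1 to 117 CPM to one of 153 to 207 CPM. Of 7 tested T and B lymphocyte markers, 4 rose, with a sum of 2.06 to 2.62 CPM in KO sham and 3.13 to 4.73 CPM in KO TAC. Of 8 cardiomyocyte markers, 5 fell and 2 had log2 fold changes above 0. The sum of the 8 was 54964 to 60378 CPM in KO sham and 42472 to 43976 CPM in KO TAC. The sum of the endothelial markers was 616 to 752 CPM in KO sham and 626 to 711 CPM in KO TAC, where 1 of 8 rose. Of 6 smooth muscle and pericyte markers 1 rose and 1 fell, and the 5 tested red blood cell markers had adjusted p of 0.331 or more (edgeR). Of the 2 tested atrial markers Nppa rose, from a mean of 146 CPM in KO sham to 2322 CPM in KO TAC. The other, Myl4, was not called, with means of 1.34 and 1.72 CPM. Myl7 and Sln were at 0 in at least 1 library. KO TAC 2 held the highest macrophage and lymphocyte sums (207 and 4.73 CPM), and KO TAC 3 held the lowest macrophage sum of its group (153 CPM) and the second highest lymphocyte sum (4.07 CPM), beside summed mitosis genes without Cenpf of 178 CPM in KO TAC 2 and 176 CPM in KO TAC 3. The part of these cell types in the result was not tested.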

How the data were processed

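Poly(A)-selected libraries of the heart apex of 16 mice were read as 150-base pairs. The deposited matrix holds unnormalised counts of reads by gene, which the authors made, per the submitters' processing notes, with cutadapt (version 2.3), FastQC and HISAT2 (2.1.0) on GRCm38. edgeR (3.26.1) is also listed there; the counting program and its use of strand are not given in the sources used here. Depth per library is given with the groups, and at most 20 counts stood behind the rarest member, Cdkn2a, in a library.

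From the deposited counts, 18275 genes passed filterByExpr, TMM factors were set and edgeR 4.0.16 (R 4.3.3, limma 3.58.1) fitted 4 group means over all 16 libraries with robust quasi-likelihood. Benjamini-Hochberg adjustment ran over all genes tested, with calls at 0.05. The SE is the log2 fold change divided by the root of F. Levels are CPM, and the gene model was GENCODE M21, in which 55227 identifiers (99.5%) were found. There were 0 columns of other samples. The members and lists were chosen with earlier results of these data known. Library values were given for Cenpf, the G1 cyclins, the CDK inhibitors and the 16 members with the largest change in KO TAC vs KO sham among those called in any contrast but the one in control hearts; Rrm1 and Pcna were added after their values were seen. From each list of other pathway genes the 3 largest rises and 3 largest falls were named. Alternatives were DESeq2 1.42.0, RLE factors, 2 filters, a fit to 8 libraries, terms for animal numbers starting with 25 or 33, a threshold of 0.01 and leaving out each library. The scripts were tested on simulated data.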

Additional observations from a re-analysis of the deposited data

Results flagged for a closer look

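Values of 25 genes and 2 gene classes in each group of 4 animals were searched for an animal far from the rest, by Dixon's ratio of gap to range. Of 108 groups of 4 looked at, 4 held such an animal, and chance flags about 1 in 20. Anln in KO sham 4 was at 1.65 CPM, below the other KO sham hearts at 2.20 to 2.31 CPM. The summed mitosis genes without Cenpf reached 116 CPM in Ctrl TAC 4, above the 91.1 to 94.8 CPM of the other Ctrl TAC hearts. The deleted gene Cardinal was at 8.02 CPM in Ctrl TAC 1, against 2.69 to 3.37 CPM in the other Ctrl TAC hearts. In the library labelled KO TAC 4 it was at 4.55 CPM, against 0.276 to 0.371 CPM in the other KO TAC hearts.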

How the results depend on the processing

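No paired analysis was possible because the labels give no replicate numbers that the groups share. Across 24 alternatives, 34 of the genes named for KO TAC vs KO sham (24 members and 17 other pathway genes) stayed on their side of the threshold. The members called in that contrast (35, Cenpf among them) ranged from 32 to 37 when 1 library was left out. They were 32 without KO sham 4 or KO TAC 3, beside 29.0% and 28.9% of all genes, and 37 without KO TAC 4, beside 31.0%. The median of the S phase genes there went from 0.52 to between 0.20 (without KO TAC 3) and 0.69. In Ctrl TAC vs Ctrl sham the 14 calls, Cenpf among them, became 3 with a term for animal numbers starting with 25, where 13.6% of all genes were called. They became 9 without Ctrl TAC 2 and KO TAC 4 together, beside 18.7% of all genes, and 3 at an adjusted p under 0.01. The share of all genes called under 0.01 was not obtained for any contrast, so that nothing is read from counts at that threshold. When 1 library was left out, the calls in Ctrl TAC vs Ctrl sham ranged from 3 to 15. The count was 3 without Ctrl TAC 4, 5 without Ctrl sham 1 and 6 without Ctrl sham 2, beside 14.9%, 14.6% and 16.6% of all genes. In KO TAC vs Ctrl TAC the 7 calls became 20 with DESeq2, 0 with the term for numbers starting with 25 and 0 at an adjusted p under 0.01. They became 1 in the fit to 8 libraries and 1 without Ctrl TAC 2 and KO TAC 4 together, beside 0.877% and 0.594% of all genes. When 1 library was left out they ranged from 0 to 15. The count was 3 without Ctrl TAC 1 and 11 without KO TAC 1, beside 2.77% and 1.40% of all genes. It was 4 without KO sham 1 or KO sham 2, beside 1.82% and 1.74%. Differences near 0 changed sign there. Cenpf, KO TAC vs Ctrl TAC (-0.0067), became 0.0047 with no filter beyond 1 count, 0.088 with the term for numbers starting with 25 and 0.13 without Ctrl TAC 2 and KO TAC 4 together, and it ranged from -0.14 to 0.11 when 1 library was left out. Cdkn2a, KO TAC vs Ctrl TAC (0.0094), became -0.10 with that term and -0.10 without both libraries, with a range of -0.26 to 0.27; it was not tested with at least 10 counts in every library, and DESeq2 gave it no adjusted p. The causes were not tested. Counts of about 0.3 CPM or less, as for Cdkn2a, limit what can be seen.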

Other observations

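Among the pathway genes outside the 41, 11 passed the test between KO TAC and Ctrl TAC, all of them higher in KO TAC, where 1.36% of all genes tested were called higher. Of the mitosis list these were 5 of 50: Cdca8 (1.04 ± 0.22, log2 fold change with SE) and Incenp (0.52 ± 0.11), which encode subunits of the chromosomal passenger complex, the condensin genes Ncapg2 (0.71 ± 0.16) and Smc4 (0.31 ± 0.07), and Racgap1 (0.73 ± 0.19), which acts in cytokinesis. Of the replication list they were 4 of 48: the histone chaperone Asf1b (0.87 ± 0.18), the chromatin assembly subunit Chaf1a (0.47 ± 0.12), the origin recognition subunit Orc6 (0.43 ± 0.10) and Slbp (0.33 ± 0.08), which binds the stem-loop of histone mRNA. The other 2, of 42 regulators of G1 and the checkpoints, were Btg2 (1.17 ± 0.27) and E2f3 (0.37 ± 0.09). These genes were named after their values were seen. Of the 11, none was still called with the term for animal numbers starting with 25 (edgeR), nor without Ctrl TAC 2, KO TAC 2 or KO TAC 3, 4 were without Ctrl TAC 3, 2 in the fit to 8 libraries, and all 11 with DESeq2.

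In control hearts, 8 of the 48 replication genes were called lower after TAC and none higher (edgeR). Of all genes tested, 9.60% were called lower and 10.4% higher there. The median log2 fold change of the 48 genes was 0.04. In knockout hearts 20 of the same list were called higher and 5 lower, where 17.8% of all genes tested were called higher and 16.5% lower.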
